A study of Mus musculus with 6 samples.

Results

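The 5 NF-kB subunit genes and 5 genes of their inhibitors were followed in subcutaneous mouse tumours 4 h after doxycycline. They are the rows for Nfkb1, Nfkb2, Rel, Rela and Relb, and for Nfkbia, Nfkbib, Nfkbie, Nfkbiz and Tnfaip3. The members were chosen by gene symbol, with earlier results of these data known. All 10 were found among the 21671 named genes of the count table and among the 14809 genes with enough counts to be tested. Ribosome-depleted RNA was sequenced from 3 libraries of tumours 4 h after doxycycline and from 3 libraries of untreated tumours. The tumours grew in CD1 nude ho mice, a strain of athymic mice that lack mature T cells but keep myeloid cells, from injected transformed hepatoblasts, the fetal progenitors of hepatocytes and bile duct cells. Per the labels, these cells carried TtRMPVIR shST18, a conditional vector whose short hairpin RNA against St18 (a zinc finger transcription factor) is induced by doxycycline. The doxycycline group has the genotype label ST18 knockdown and was sampled 4 h after its initial gavage with doxycycline, at 200 mg/ml in a volume of 300 µl. The untreated group has the genotype label wild type, although the protocol describes the same vector for every sample. The labels describe no group with doxycycline or gavage but without the hairpin, so the drug, the gavage and the hairpin cannot be told apart here. The sources used here do not give the ages of the animals, the number of cell clones or whether each library came from its own animal, and p-values then measure only the spread between these libraries.

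NF-kB factors are dimers of 5 related subunits. In resting cells the inhibitors of the IkB family hold most dimers in the cytoplasm. Inflammatory signals lead to the breakdown of these inhibitors, after which dimers of Rela or Rel with the product of Nfkb1 enter the nucleus (the canonical branch). A slower, non-canonical branch processes the precursor protein encoded by Nfkb2 and releases dimers with Relb. Several of these genes, among them Nfkb2, Relb, Nfkbia and Tnfaip3, are themselves known NF-kB targets, which gives the pathway its feedback. In liver the pathway is known for protecting hepatocytes from tumour necrosis factor and for driving acute phase and chemokine genes.

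The promoters are shown because several members are known targets of the factors they encode. RefSeq promoter windows (build GRCm38.p6, 250 bases before to 50 after a transcription start) were at hand for 7 of the 10 members. Relb, Nfkb1 and Nfkbiz had none. Both strands were searched for a loose motif, GGGNNNNNCC, and for a stricter one, GGGNNTTNCC, which is contained in the loose one; overlapping matches were kept. The windows printed below all hold the stricter motif. The first is the outermost start of Nfkb2, the next its second start, followed by 1 window each of Rel, Nfkbia and Tnfaip3. Capitals mark every match to the loose motif, and the sequences run 5′ to 3′ on the strand of the gene.
Nfkb2 start 1, chr19:46304487-46304786, plus strand: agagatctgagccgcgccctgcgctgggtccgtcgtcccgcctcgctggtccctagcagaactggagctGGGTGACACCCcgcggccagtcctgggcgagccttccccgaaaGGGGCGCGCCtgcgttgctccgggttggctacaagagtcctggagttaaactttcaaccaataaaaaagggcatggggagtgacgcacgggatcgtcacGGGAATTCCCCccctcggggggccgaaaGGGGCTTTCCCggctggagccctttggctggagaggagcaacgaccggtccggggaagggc
Nfkb2 start 2, chr19:46305445-46305744, plus strand: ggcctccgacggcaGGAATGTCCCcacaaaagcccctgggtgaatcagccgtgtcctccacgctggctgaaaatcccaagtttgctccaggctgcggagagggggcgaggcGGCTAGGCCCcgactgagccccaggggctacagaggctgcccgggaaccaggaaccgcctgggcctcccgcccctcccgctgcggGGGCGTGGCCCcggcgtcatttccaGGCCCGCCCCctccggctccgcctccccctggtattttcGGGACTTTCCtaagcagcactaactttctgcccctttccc
Rel start 1, chr11:23770920-23771219, minus strand: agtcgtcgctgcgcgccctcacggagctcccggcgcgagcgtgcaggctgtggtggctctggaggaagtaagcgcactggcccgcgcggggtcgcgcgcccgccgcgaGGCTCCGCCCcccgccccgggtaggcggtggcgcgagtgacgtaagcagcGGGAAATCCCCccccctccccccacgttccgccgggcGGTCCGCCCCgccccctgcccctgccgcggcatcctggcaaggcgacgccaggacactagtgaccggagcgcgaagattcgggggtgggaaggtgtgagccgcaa
Nfkbia start 1, chr12:55492598-55492897, minus strand: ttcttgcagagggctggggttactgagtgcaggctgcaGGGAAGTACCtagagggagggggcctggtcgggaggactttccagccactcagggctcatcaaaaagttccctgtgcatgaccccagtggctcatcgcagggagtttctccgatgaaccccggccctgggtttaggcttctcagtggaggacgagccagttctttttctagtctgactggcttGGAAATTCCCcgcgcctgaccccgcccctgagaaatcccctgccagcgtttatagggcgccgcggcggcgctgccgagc
Tnfaip3 start 1, chr10:19015361-19015660, minus strand: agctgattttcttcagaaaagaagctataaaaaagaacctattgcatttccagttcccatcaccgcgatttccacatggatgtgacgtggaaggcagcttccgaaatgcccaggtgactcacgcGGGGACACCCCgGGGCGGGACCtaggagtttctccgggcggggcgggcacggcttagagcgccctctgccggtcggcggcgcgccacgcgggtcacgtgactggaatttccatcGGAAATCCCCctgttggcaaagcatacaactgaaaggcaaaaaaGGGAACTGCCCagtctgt

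The outermost Nfkb2 window held the stricter motif at 2 places close to the start. One was GGGAATTCCC at positions -39 to -30, a palindrome read on both strands, and the other GGGGCTTTCC at -11 to -2, which overlaps GGGCTTTCCC at -10 to -1 (position 0 is the first transcribed base). The second Nfkb2 start had GGGACTTTCC at 10 to 19, and the same letters lie in the overlapping window of the third start, at -225 to -216. Nfkbia had GGAAATTCCC at -29 to -20, Tnfaip3 had GGAAATCCCC at -12 to -3, and Rel had GGGAAATCCC at -92 to -83 with an overlapping match 1 base on. The Rela, Nfkbib and Nfkbie windows and the second Tnfaip3 window had none of the stricter letters. Of the 7 members with a window, 4 had the stricter motif in at least 1 window, against 5.48% of the 27025 genes in the RefSeq table. The loose motif was in 6 of the 7 and in 53.5% of genes. A match describes letters only and says nothing of binding in these tumours.

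**Figure D1:**
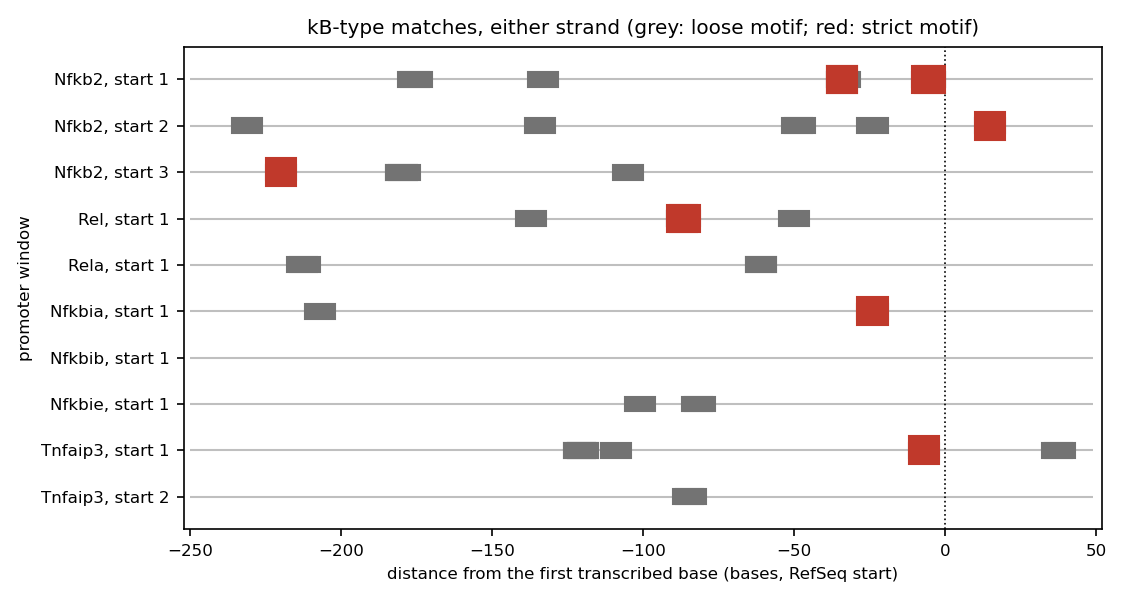
Positions of kB-type matches in the 10 RefSeq promoter windows of 7 members; the x axis is the distance in bases from the first transcribed base, each line is a window, grey boxes are the loose motif and red boxes the stricter one, on either strand. The stricter motif appears in windows of Nfkb2, Rel, Nfkbia and Tnfaip3.

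Totals ran from 12090309 to 16169043 counts per library. St18, the gene the hairpin targets, had 34, 12 and 61 counts in doxycycline libraries 1, 2 and 3 and 12, 23 and 19 counts in untreated libraries 1, 2 and 3, so the libraries labelled ST18 knockdown did not show a lower St18 (edgeR log2 fold change 1.03, adjusted p = 0.298, and 1.45, adjusted p = 0.0386, without doxycycline library 2). All directions below are between the libraries labelled ST18 knockdown and the untreated ones. Among markers of the labelled cell type, Alb had 0 to 2 and Hnf4a 0 to 16 counts per library, while Krt8, Krt18 and Sox9 had 339 to 1433, 722 to 1162 and 382 to 504. Over all genes tested, edgeR called 2.84% higher and 2.18% lower. In edgeR 10 of 16 tested skeletal muscle markers were higher, with a summed level of 450.4 to 3104 CPM (counts scaled by TMM-adjusted library size) in doxycycline libraries against 85.3 to 237 CPM in untreated libraries. For 14 macrophage markers, 3 were called higher and 0 lower, with 12 positive and 2 negative fold changes. Their sums were 636 to 906 CPM after doxycycline against 520 to 622 CPM untreated. For 14 fibroblast markers, 3 were higher, with sums of 1763 to 2037 CPM after doxycycline against 1340 to 1396 CPM untreated. Of 8 tested neutrophil markers 1 was lower and none higher, with sums of 43.5 to 81.2 CPM after doxycycline against 102 to 163 CPM untreated. The granule genes Elane and Mpo had 0 to 1 and 0 to 6 counts per library. Csf3r, S100a9 and Cxcr2, of the same list, had 123 to 900, 92 to 444 and 257 to 453. The T cell genes Cd3e and Cd3g had 0 to 5 and 0 to 4 counts per library. Cd3d, Cd4 and Cd8a, of the same list, had 18 to 30, 40 to 60 and 21 to 58. The dendritic list had no marker past the threshold of 11 tested (188 to 222.5 CPM after doxycycline against 148 to 181 CPM untreated), nor had the lymphocyte list of 4 tested or the hepatoblast list of 9 tested. Tumours were measured whole, so fewer cells of a type and less RNA per cell cannot be told apart, and the part of these shifts in the results below was not tested.

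Of the 10 genes, the non-canonical pair Relb and Nfkb2 fell and none rose. The other 8 did not pass the threshold of an adjusted p under 0.05 over all genes tested. Fold changes were negative for 9 of the 10, with Rel as the exception, and their median was -0.42 on the log2 scale, against 0.0077 over all 14809 genes. Because the members were chosen with earlier results of these data known, setting them beside all genes is a description and not a test. Counts stand against a background in which 2.18% of all genes tested were called lower, 2.84% higher and 5.02% in either direction, 14.4% had all doxycycline libraries under all untreated ones, and 48.9% had a negative fold change. The libraries of the 2 groups did not overlap for 5 members, all lower: Nfkb1, Nfkb2, Rela, Relb and Nfkbiz. The same 5 had an unadjusted p under 0.05, a mark that 10.8% of all genes tested passed on the lower side and 13.1% on the higher side.

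Relb, the subunit that pairs mainly with the product of Nfkb2, had the lowest p of the 10. Its normalised counts were 35.2, 29.96 and 38.6 CPM in doxycycline libraries 1, 2 and 3, against 60.3, 52.8 and 65.7 CPM in untreated libraries 1, 2 and 3. Every doxycycline library lay below every untreated one. Relb averaged 34.6 ± 4.37 CPM after doxycycline and 59.6 ± 6.49 CPM untreated (SD, n = 3 each), and it fell by 41.9% (log2 fold change -0.78 with an SE of 0.14 and a 95% interval of -1.098 to -0.47, adjusted p = 0.023 in the quasi-likelihood test of edgeR).

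Nfkb2, which encodes the precursor that the non-canonical branch cuts to a mature subunit, followed the same order of groups. It had 84.6, 58.7 and 83.7 CPM in doxycycline libraries 1, 2 and 3, against 120, 111 and 122 CPM in untreated libraries 1, 2 and 3. The groups did not overlap, and doxycycline library 2 was the lowest. The means were 75.7 ± 14.7 CPM after doxycycline and 118 ± 5.97 CPM untreated (SD, n = 3 each), a change of -35.65% (log2 fold change -0.64, SE 0.14, 95% interval -0.96 to -0.32, edgeR adjusted p = 0.0419). Both calls depended on which libraries were included: without untreated library 1, 2 or 3 neither passed (edgeR adjusted p = 0.122, 0.0659 and 0.136 for Relb, and 0.165, 0.0992 and 0.195 for Nfkb2), and without doxycycline library 1 or 3 Nfkb2 did not pass either (0.058 and 0.0753), while without doxycycline library 2 both did (0.00829 and 0.0066). Calls over all genes also dropped without untreated library 1, 2 or 3, to 11, 27 and 14 higher and 12, 25 and 13 lower, from 421 higher and 323 lower. The log2 fold changes stayed between -0.88 and -0.69 for Relb and between -0.72 and -0.48 for Nfkb2 over all 14 other fits, and in the same libraries the summed neutrophil markers were 43.5 to 81.2 CPM after doxycycline against 102 to 163 CPM untreated, a shift whose part in these results was not tested.

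Rela, the main transactivating subunit of the canonical branch, did not pass the threshold although its groups did not overlap. Its levels were 82.2, 62.7 and 72.9 CPM in doxycycline libraries 1, 2 and 3, against 96.7, 91.6 and 91.1 CPM in untreated libraries 1, 2 and 3. Its log2 fold change came to -0.36 (SE 0.11, 95% interval -0.61 to -0.11, edgeR adjusted p = 0.101). Nfkb1, which encodes the precursor of the usual partner of Rela, had 138, 130 and 151 CPM in doxycycline libraries, against 162, 151.5 and 162 CPM in untreated libraries. The gap between the highest doxycycline library and the lowest untreated one was narrow, with a log2 fold change of -0.18 (SE 0.08, 95% interval -0.37 to -0.00053, edgeR adjusted p = 0.209). The interval allows a fall of up to 22.5% for Nfkb1 and 34.6% for Rela.

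Rel, the subunit most typical of lymphoid and myeloid cells, was the scarcest of the 5 and the only member with a positive fold change. It had 28.8, 13.1 and 23.3 CPM in doxycycline libraries 1, 2 and 3, against 14.9, 21.1 and 19.1 CPM in untreated libraries 1, 2 and 3. The doxycycline libraries lay on both sides of the untreated ones. The log2 fold change came to 0.24 (SE 0.29, 95% interval -0.42 to 0.90, edgeR adjusted p = 0.669), and its sign turned without doxycycline library 1 (-0.02) and with offsets for GC content and length in a fit with the replicate block (-0.02). In the same libraries 3 of 14 macrophage markers were higher, against 2.84% of all genes tested, and their part in the value of Rel was not tested.

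**Figure D2:**
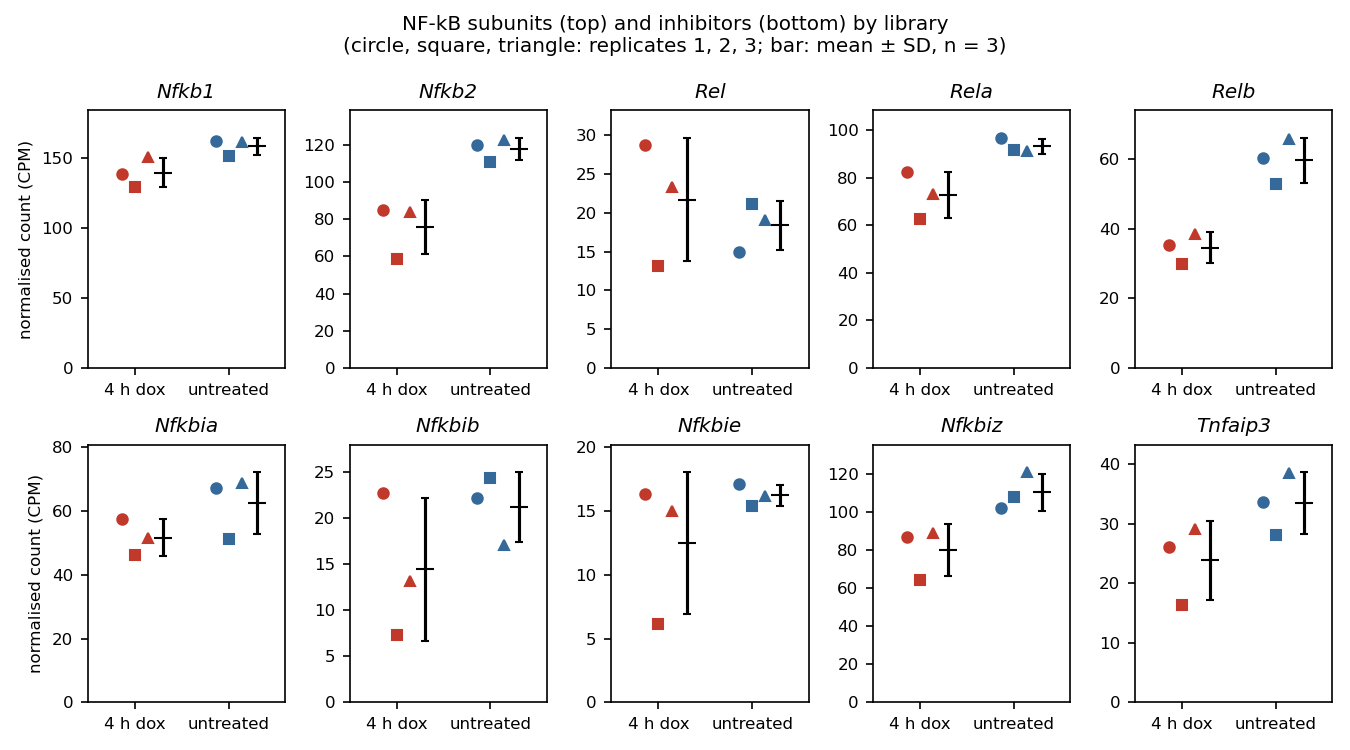
Normalised counts (CPM, y axis) of the 5 subunit genes (top row) and the 5 inhibitor genes (bottom row) in each doxycycline library (red, left) and untreated library (blue, right); symbols mark the replicates and bars the mean ± SD of 3 libraries. Relb lies at 29.96 to 38.6 CPM after doxycycline and at 52.8 to 65.7 CPM untreated, while Rel and 4 of the 5 inhibitors overlap between the groups.

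None of the 5 inhibitors passed the threshold, and all 5 had negative fold changes (median -0.46). Nfkbiz, an atypical nuclear member of the IkB family that also acts as a coactivator, came closest. It had 87.2, 64.5 and 89.3 CPM in doxycycline libraries 1, 2 and 3, against 102, 108 and 121 CPM in untreated libraries 1, 2 and 3. The groups did not overlap, with a log2 fold change of -0.46 (SE 0.13, 95% interval -0.77 to -0.15, edgeR adjusted p = 0.0882).

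Nfkbia encodes the IkB protein that is broken down first after stimulation and is resynthesised as a feedback brake. Its levels were 57.4, 46.0 and 51.4 CPM in doxycycline libraries 1, 2 and 3, against 67.0, 51.1 and 68.8 CPM in untreated libraries 1, 2 and 3. Untreated library 2 lay among the doxycycline libraries, and the log2 fold change came to -0.27 (SE 0.14, 95% interval -0.60 to 0.05, edgeR adjusted p = 0.294). Tnfaip3, a ubiquitin-editing enzyme that shuts off signalling upstream of the IkB kinases, had 26.1, 16.4 and 29.1 CPM in doxycycline libraries, against 33.6, 28.2 and 38.5 CPM in untreated libraries. Doxycycline library 3 lay above untreated library 2, with a log2 fold change of -0.49 (SE 0.23, 95% interval -1.004 to 0.03, edgeR adjusted p = 0.239).

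Nfkbib and Nfkbie, the other classical IkB genes, varied most between the doxycycline libraries. Nfkbib had 22.7, 7.35 and 13.2 CPM in doxycycline libraries 1, 2 and 3, against 22.2, 24.3 and 17.0 CPM in untreated libraries 1, 2 and 3. Its log2 fold change came to -0.56 (SE 0.37, 95% interval -1.40 to 0.28, edgeR adjusted p = 0.4). Nfkbie had 16.4, 6.12 and 15.0 CPM in doxycycline libraries, against 17.1, 15.4 and 16.2 CPM in untreated libraries (log2 fold change -0.38, SE 0.34, edgeR adjusted p = 0.543). For both genes doxycycline library 2 was the lowest and doxycycline library 3 also lay under every untreated library, while doxycycline library 1 lay among the untreated ones. Without doxycycline library 2 the values were -0.25 for Nfkbib and -0.05 for Nfkbie.

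**Figure D3:**
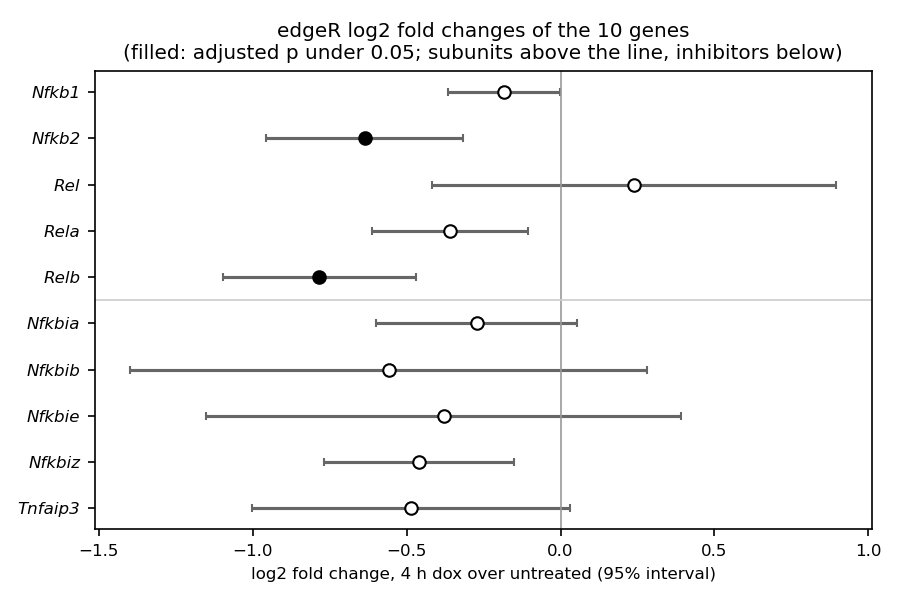
Log2 fold changes of doxycycline over untreated libraries (x axis) with 95% intervals from edgeR for the 10 genes (y axis), filled where the adjusted p is under 0.05. Relb (-0.78) and Nfkb2 (-0.64) are filled, and Rel alone lies to the right of 0.

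Doxycycline library 2 held the lowest normalised count of all 6 libraries for each of the 10 genes. Over all genes tested, the lowest value fell in this library for 24.6%. The summed level of the 10 genes was 579, 434.5 and 567 CPM in doxycycline libraries 1, 2 and 3, against 696, 655 and 721 CPM in untreated libraries 1, 2 and 3, so the groups also stood apart without library 2. That library also had the largest summed muscle markers, 3104 CPM, and the smallest summed neutrophil markers, 43.5 CPM, and the part of either was not tested. Leaving it out moved the 10 fold changes upward, to between -0.69 for Relb and 0.49 for Rel, and Nfkbiz then passed the threshold (-0.33, edgeR adjusted p = 0.0452).

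Within a library, the balance of the subunits was compared as a ratio of counts, which no scaling of libraries can change. There were 0.429, 0.478 and 0.530 Relb counts per Rela count in doxycycline libraries 1, 2 and 3, against 0.624, 0.577 and 0.722 in untreated libraries 1, 2 and 3. The groups did not overlap, and the log2 ratio was lower by 0.42 on average after doxycycline (-1.07 ± 0.15 after doxycycline against -0.65 ± 0.16 untreated, SD, n = 3 each, exact two-sided permutation test, p = 0.1, adjusted p = 0.15 over 3 ratios). A test of 3 against 3 libraries cannot go below 0.1. For Nfkb2 per Nfkb1 count the ratios were 0.612, 0.454 and 0.557 in doxycycline libraries, against 0.740, 0.732 and 0.756 in untreated libraries, again without overlap (log2 difference -0.47, exact permutation test, p = 0.1, adjusted p = 0.15). Both non-canonical genes were thus lower relative to their canonical relative in each doxycycline library than in any untreated one, but neither ratio passed the threshold. The ratios carry no offset for GC content or length. With such offsets the edgeR log2 fold changes were -0.48 for Nfkb2 and -0.395 for Nfkb1, whose GC contents are 59.4% and 44.9%. They were -0.70 for Relb and -0.20 for Rela. The offsets also use the length of all exons of a gene together, 4584 bases for Nfkb2 and 12060 for Nfkb1. The part of GC content or of length in the ratios was not tested. Nfkbia per Rela count, the inhibitor against the subunit it holds, was 0.698, 0.735 and 0.704 after doxycycline, against 0.693, 0.558 and 0.756 untreated, and overlapped (log2 difference 0.10, exact permutation test, p = 0.7, adjusted p = 0.7).

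Levels of different genes were set side by side per length, as CPM per kilobase of 1 coding mRNA in GENCODE M21, which is not the authors' annotation. It was the longest mRNA of the basic set with a consensus coding sequence tag, or the longest without where none had the tag. After doxycycline Nfkb1 stood highest at 33.9 ± 2.55 and Rel lowest at 2.91 ± 1.06, and untreated tumours ran from 39.5 ± 6.16 for Nfkbia to 2.46 ± 0.43 for Rel (SD, n = 3 each). The untreated libraries fell into steps: Nfkbia, Nfkb1, Nfkb2 and Rela (39.5 to 34.3) overlapped neighbour by neighbour, Relb and Nfkbiz (27.0 and 26.8) lay below them, and Nfkbib, Tnfaip3 and Nfkbie (10.3 to 6.67) lay lower still. After doxycycline the upper 6 genes, from Nfkb1 to Relb at 15.7 ± 1.98, overlapped neighbour by neighbour, and a gap without overlap separated Relb from Nfkbib. Of the summed per-length level of the 5 subunits, Nfkb1 took 32.98 ± 2.58% after doxycycline and 27.6 ± 0.25% untreated, Nfkb2 took 23.2 ± 1.80% after doxycycline and 26.8 ± 0.19% untreated, and Relb took 15.2 ± 0.70% after doxycycline and 19.3 ± 1.32% untreated. Rela took 25.9 ± 1.55% after doxycycline and 24.6 ± 1.14% untreated, and Rel at most 3.48% in any library.

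The receptors and ligands that feed the pathway held no gene past the threshold, of 18 tested out of 20 listed (median log2 fold change -0.15). At an unadjusted edgeR p under 0.05, 2 were higher and 5 lower, against 13.1% higher and 10.8% lower over all genes tested. Nearest to the threshold was the receptor gene Cd40, with 22.5, 27.4 and 24.0 CPM in doxycycline libraries 1, 2 and 3, against 35.4, 35.3 and 37.8 CPM in untreated libraries 1, 2 and 3 (-0.56, edgeR adjusted p = 0.0535). Il1b, the inflammatory cytokine made mainly by myeloid cells, had 11.2, 7.15 and 30.04 CPM after doxycycline, against 44.3, 56.8 and 72.8 CPM untreated (-1.84, edgeR adjusted p = 0.0587). The groups did not overlap for either gene. Tnfrsf11a, the receptor RANK (0.90, adjusted p = 0.0825), and Tnfsf13b, the B cell factor BAFF (1.13, adjusted p = 0.137), had positive values in edgeR. For both, every doxycycline library lay above every untreated one. Tnf itself was scarce, at 1.77 CPM after doxycycline and 1.97 CPM untreated on average (edgeR adjusted p = 0.86).

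The kinases and adaptors that carry the signal also held none past the threshold, of 24 tested out of 25 (median 0.04). At an unadjusted edgeR p under 0.05, 4 were higher and 4 lower, beside the same 13.1% and 10.8% over all genes. Those with the smallest p were Tab3, a partner of the kinase TAK1 (0.53, edgeR adjusted p = 0.106), Traf3, which restrains the non-canonical kinase (-0.34, adjusted p = 0.117), Traf2 (-0.42, adjusted p = 0.144) and Ripk1 (0.21, adjusted p = 0.147). The genes of the IkB kinase complex had small values, with Chuk at -0.10, Ikbkb at -0.13 and Ikbkg at 0.25 on the log2 scale (edgeR adjusted p from 0.154 to 0.638). Map3k14, the kinase that starts the non-canonical branch, was at 0.12 (edgeR adjusted p = 0.674). Tnf, the genes of the kinase complex and Map3k14 were singled out for their role after their values were seen.

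Of 21 further regulators tested, edgeR called none (median 0.05). At an unadjusted edgeR p under 0.05, 3 were higher and 2 lower, beside 13.1% and 10.8% over all genes. The smallest p belonged to Tax1bp1, an adaptor of Tnfaip3 (0.27, edgeR adjusted p = 0.0826), Nkiras1 (0.47, adjusted p = 0.14), the atypical IkB gene Nfkbid (-1.33, adjusted p = 0.158) and the inhibitory kinase gene Irak3 (1.25, adjusted p = 0.185). Nfkbid had 1.425, 1.099 and 2.885 CPM in doxycycline libraries, against 2.95, 3.33 and 7.425 CPM in untreated libraries, without overlap. Irak3 overlapped between the groups.

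Of the genes known as NF-kB targets, 31 of 32 listed were tested, and 7 fell and 1 rose (median -0.55; 25 negative). The list was chosen with earlier results of these data known, and the background was 2.18% lower and 2.84% higher. The chemokine genes Cxcl1, Ccl2, Cxcl10 and Ccl20 fell, as did the early response gene Ier3, Tnfaip2, and Sele, which encodes the endothelial adhesion molecule E-selectin. Cxcl10 had 63, 44 and 64 counts in doxycycline libraries 1, 2 and 3, against 181, 318 and 139 counts in untreated libraries 1, 2 and 3 (log2 fold change -1.81, SE 0.35, edgeR adjusted p = 0.0288). Ier3 had 37.98, 28.0 and 37.9 CPM after doxycycline, against 63.3, 55.96 and 63.0 CPM untreated (-0.81, SE 0.14, edgeR adjusted p = 0.0233). For Ccl2, a monocyte attractant (-0.76, adjusted p = 0.0454), and Tnfaip2 (-0.48, adjusted p = 0.0249), the groups did not overlap in these edgeR calls either. Sele had 99.3, 116 and 88.6 CPM after doxycycline, against 140, 139 and 143 CPM untreated (-0.47, SE 0.10, edgeR adjusted p = 0.0403). In the same libraries 2 of 9 endothelial markers were called higher and 0 lower, with 8 positive and 1 negative fold changes. Their sums were 427 to 463.5 CPM after doxycycline against 346 to 376 CPM untreated, and their part in the value of Sele was not tested.

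The complement gene C3 went the other way from these targets and rose. It had 44.4, 24.9 and 54.1 CPM in doxycycline libraries 1, 2 and 3, against 14.6, 14.3 and 18.9 CPM in untreated libraries 1, 2 and 3 (log2 fold change 1.37, SE 0.28, edgeR adjusted p = 0.0326). Ccl20 rests on few reads, with 6, 0 and 6 counts in doxycycline libraries, against 29, 41 and 50 counts in untreated libraries (-3.21, SE 0.70, edgeR adjusted p = 0.0409). Cxcl1, a neutrophil attractant, was at 17.7 ± 1.99 CPM after doxycycline and 39.1 ± 4.78 CPM untreated (-1.14, edgeR adjusted p = 0.0132). Without any 1 untreated library no target gene passed, and over all genes only 11 to 27 were higher and 12 to 25 lower. Target genes lower numbered 4 without doxycycline library 1 or 3, and 9 without doxycycline library 2. The summed neutrophil markers were lower and the summed macrophage markers higher after doxycycline in these libraries, as given above, and their part in the target genes was not tested.

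**Figure D4:**
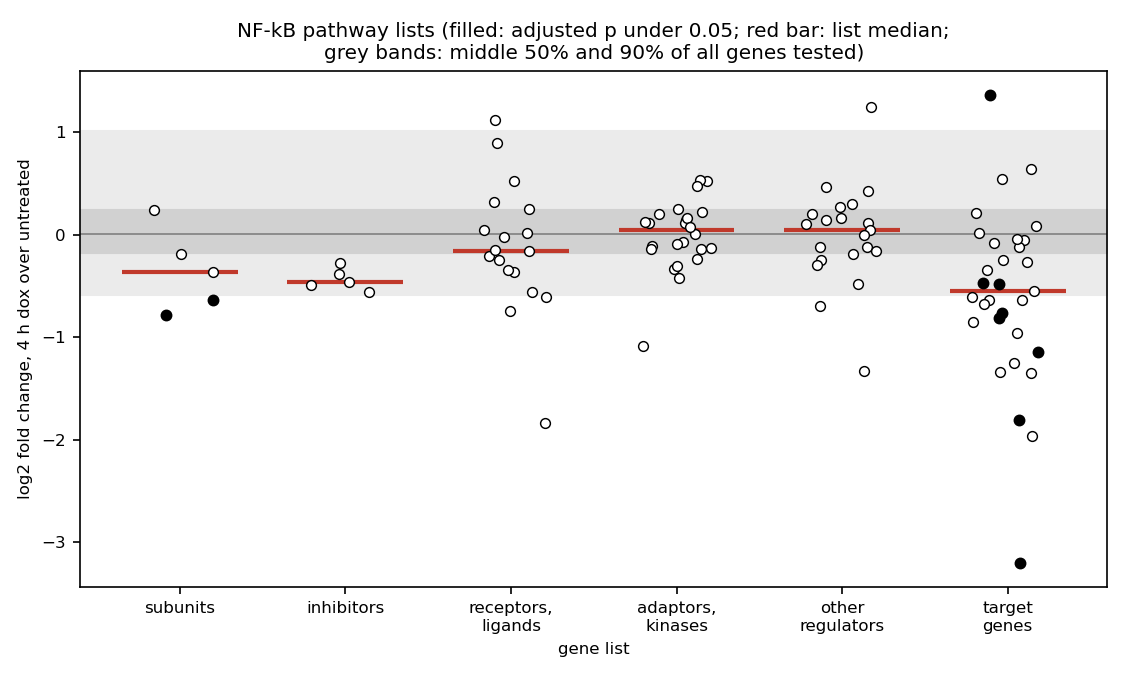
Log2 fold changes of doxycycline over untreated libraries (y axis) for the genes of 6 lists (x axis), each point a tested gene, filled where the edgeR adjusted p is under 0.05, with red bars at the list medians and grey bands for all 14809 genes. Filled points occur among the subunits (2 of 5) and the target genes (8 of 31), and in none of the other 4 lists.

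The genes whose pattern over the 6 libraries lay nearest to the 2 that fell were found by the root mean square difference of centred log2 CPM, a description with no test. Nearest to Relb were Ier3 (0.0778 log2 units), H2afj (0.0802) and Comtd1 (0.0829). Nearest to Nfkb2 were Map1s (0.0527), Eepd1 (0.0537) and Sbno2 (0.0546). Ier3 averaged 34.6 ± 5.72 CPM after doxycycline and 60.8 ± 4.17 CPM untreated (SD, n = 3 each). Sbno2 averaged 157 ± 28.3 CPM after doxycycline and 239 ± 6.21 CPM untreated.

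Base composition differed between the genes called in each direction. Genes called lower had a median transcript GC content of 54.5% and genes called higher 46.0%, against 49.8% for all, and the 10 members ranged from 42.5% for Rel to 59.4% for Nfkb2. With offsets for GC content and length, Relb (-0.70, edgeR adjusted p = 0.0189) and Nfkb2 (-0.48, adjusted p = 0.035) still fell, and Nfkb1 (-0.395, adjusted p = 0.0405) and Nfkbiz (-0.51, adjusted p = 0.0405) passed as well, while Rela was at -0.20 (adjusted p = 0.321). The split of all calls turned with those offsets, with 304 genes higher and 442 lower, against 421 higher and 323 lower without them. Read density was looked at in 1 pair only, where untreated library 2 had 1.23 times the total of untreated library 1. The median gene had 1.25 times the counts at 0.05 to 0.1 counts per base, the class of Nfkbie. At 0.4 to 0.8 counts per base, the class of Nfkb1, Nfkb2, Rela and Nfkbia, it had 1.18 times the counts. With 1 pair, depth cannot be told apart from other differences between these 2 libraries. The part of read density in the fold changes after doxycycline was not tested.

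**Figure D5:**
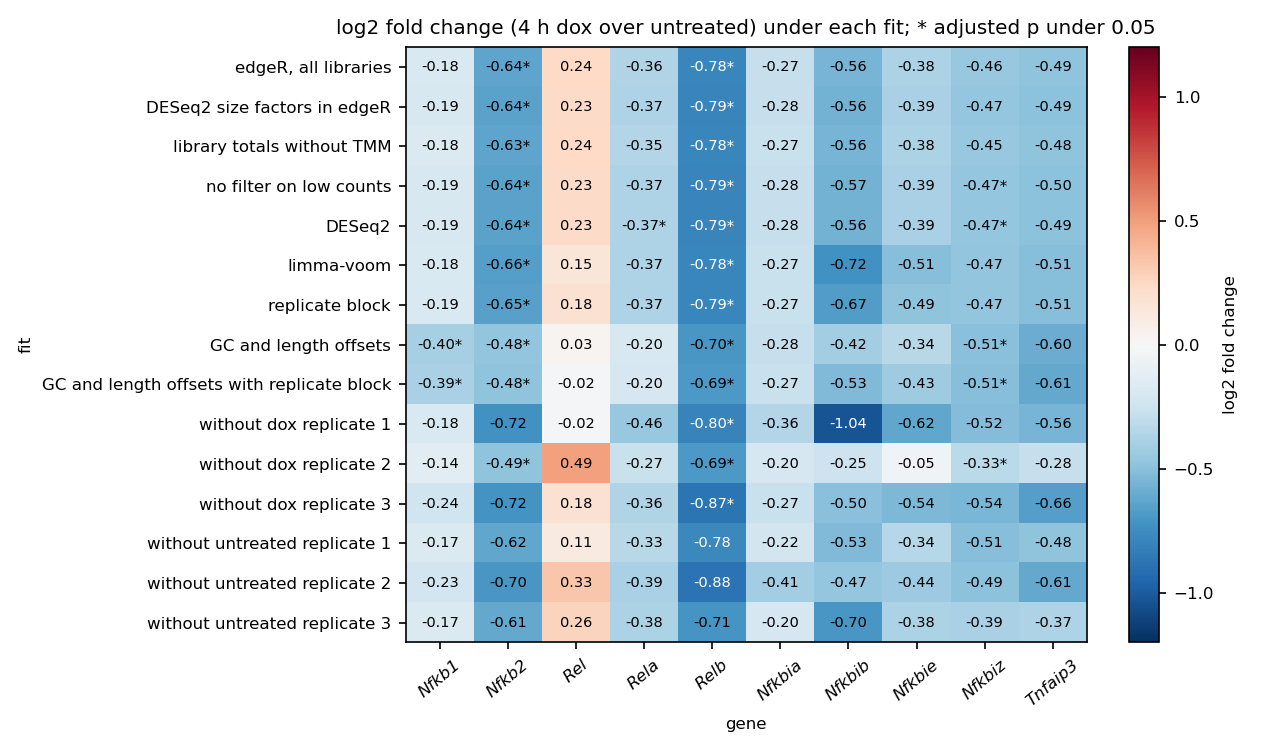
Log2 fold change of doxycycline over untreated libraries for each gene (x axis) under each fit (y axis), coloured from blue (negative) to red (positive), with a star where the adjusted p is under 0.05. Relb and Nfkb2 are negative in every fit shown, Rel is near 0 (-0.02) in 2 of them, and neither has a star where an untreated library is left out.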

How the data were processed

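The deposited table holds whole-number read counts per gene, which the authors made with TopHat2 2.0.8, TopHat and HTSeq against mm9; these names come from the submitters' processing notes, without role or order. The sources used here do not give strand use or the treatment of multiply mapped and duplicate reads, so reads of overlapping antisense genes may be included. Of 21761 rows, 90 carry no gene name; they held 0.0361% to 0.0402% of the counts and were left out.

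Counts were tested in R 4.3.3 with edgeR 4.0.16: filterByExpr, TMM scaling (factors 0.985 to 1.02), robust quasi-likelihood test, two-sided, Benjamini-Hochberg adjustment over 14809 genes, threshold 0.05. CPM uses TMM-adjusted totals. Standard errors are the log2 fold change over the square root of F. Alternatives used DESeq2 1.42.0, limma 3.58.1 and others listed in the closing section, and the scripts were tested on simulated data. Ratios of counts used a pseudocount of 0.5 and scipy 1.17.1. GENCODE M21 (GRCm38) gave lengths and GC content for 99.3% of tested genes; no mm9 coordinates are printed. Replicate pairs had a chi-square of 13.1 to 31.8 after doxycycline and 5.4 to 8.69 untreated for each degree of freedom, above counting noise, so each library counts once.

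By the rule for named genes, the text names besides the 10 members St18, every called gene of 4 pathway lists or else the 4 with the smallest p, and the 3 genes most like each called member. Outside that rule, Tnf, Chuk, Ikbkb, Ikbkg and Map3k14 were named for their role after their values were seen. Named as cell type markers are Alb, Hnf4a, Krt8, Krt18, Sox9, Elane, Mpo, Csf3r, S100a9, Cxcr2, Cd3e, Cd3g, Cd3d, Cd4 and Cd8a. The members and lists were chosen with earlier results of these data known.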

Additional observations from a re-analysis of the deposited data

Results flagged for a closer look

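The rows of the count table that carry no gene name, which no comparison used, took 0.039% of the counts on average in doxycycline libraries (0.0382% to 0.0402%) and 0.0368% in untreated libraries (0.0361% to 0.038%), so every doxycycline library lay above every untreated one. Their identity was not examined.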

How the results depend on the processing

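Of the 10 fold changes, 9 kept their sign in all 14 other fits. Rel ranged from -0.0162 to 0.494 without each replicate in turn, and was -0.0191 with GC and length offsets in a fit with the replicate block and -0.0162 without doxycycline replicate 1. Relb passed the threshold in 11 and Nfkb2 in 9 of the 14, and the number of members lower was 4 with DESeq2 (Nfkb2, Rela, Relb and Nfkbiz), 4 with GC and length offsets with or without the replicate block (Nfkb1, Nfkb2, Relb and Nfkbiz), and 0 to 3 without each replicate in turn; no fit called a member higher. With 0 members lower, which was found without untreated replicate 1, 2 or 3 in edgeR, 4, 7 and 4 members had an unadjusted p under 0.05. In the same fits 2414 of 15261, 2748 of 15089 and 2158 of 15146 genes tested passed that mark, in either direction.

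Over all genes, the numbers higher and lower were 892 and 789 with DESeq2, 261 higher with limma-voom, 537 lower with GC and length offsets and the replicate block, and 11 to 1244 higher and 12 to 866 lower without each replicate in turn. The replicate block alone gave 215 higher and 179 lower, with Relb and Nfkb2 still lower (-0.787 and -0.653). Same-numbered libraries did not deviate together (r of -0.00976, -0.0747 and 0.0155), and no library correlated best with its own number. The numbers were therefore not taken as pairs. The median over all genes was 0.0265 with no filter on low counts, -0.0651 with the offsets and -0.0762 with offsets and block.

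Target genes lower numbered 12 with DESeq2, 4 with the replicate block, 11 with offsets and block, and 0 to 9 without each replicate; those higher were 2 with DESeq2, 0 with limma-voom and 0 to 2 without each replicate. Receptors and ligands had 1 higher and 2 lower with DESeq2, 1 lower with limma-voom, the replicate block, the offsets, and offsets with block, and 0 to 1 higher and 0 to 2 lower without each replicate; their median was -0.0876 with no filter and -0.255 to -0.0852 without each replicate. Adaptors and kinases had 1 higher with DESeq2, 1 lower with the offsets and with offsets and block, and 0 to 2 higher without each replicate, with a median of -0.0553, -0.0606 and, without each replicate, -0.0347 to 0.0848. Other regulators had 1 higher with DESeq2 and 0 to 2 without each replicate, with a median of -0.0799, -0.0922 and -0.0228 to 0.0871 in the same fits. The St18 log2 fold change was 1.45 without doxycycline replicate 2, where it passed (edgeR adjusted p = 0.0386), and ranged from 0.575 to 1.45 without each replicate. The Nfkbia to Rela ratio difference was -0.0232 without untreated replicate 2 and 0.0793 to 0.195 without each other replicate, and the exact permutation test cannot pass the threshold with these numbers.

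For differences that moved, the cause was not tested. With 3 libraries a group, the intervals of Nfkbib and Nfkbie reach down to -1.40 and -1.15, so changes of those sizes are not excluded by these data.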
